A study of Homo sapiens with 12 samples.

Results

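The comparison described here set LNCaP cells transfected with miR-203 against LNCaP cells transfected with a scramble microRNA, in total RNA hybridised to expression arrays. LNCaP is an established human prostate cancer line that responds to androgen. The miR-203 group and the scramble group had 3 arrays each, called biological replicates in the labels, which makes 6 of the 12 arrays of the series. The other groups, transfected with miR-130a and with miR-205, had 3 arrays each and enter below only where a level with miR-203 is set against them. All 12 cultures are of the same line and all were transfected, so the scramble arrays carry the transfection too. The labels give no dose, no time after transfection and no arm of the microRNA.

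Probe sets with exactly 1 gene symbol named 11963 genes, and each gene was represented by the probe set with the highest mean over the 12 arrays. Of these, 6821 genes lay above the median of the array on at least 3 arrays and were tested. The comparison answers which transcripts were higher and which were lower once miR-203 was raised in these cells. Levels are log2 values, and differences are miR-203 minus scramble on the log2 scale with the standard error of the limma fit (SE, n = 3 arrays per group). A gene was called higher or lower where its adjusted p was below 0.05, with the adjustment made over all 6821 genes.

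MicroRNAs are short RNAs that guide Argonaute proteins to partly complementary sites in messenger RNAs, mostly in the 3′ untranslated region, and lower the stability and translation of those messengers. Pairing of bases 2 to 8, the seed, does most of the work of finding a target. miR-203 is known from skin, where it restrains the proliferation of epithelial progenitors, and it is often low in prostate tumours. Small RNAs of foreign origin can also be detected by cytosolic RNA sensors, which switch on interferon and, through it, a large set of antiviral genes. The RefSeq entries for both arms of miR-203 (hsa-miR-203a, GRCh38.p14, chr14:104117469-104117490 for the 3p arm and chr14:104117431-104117455 for the 5p arm, plus strand) are shown because the arm used is not stated, with that of miR-205 (chr1:209432166-209432187, plus strand) for contrast. Capitals mark the seed.
hsa-miR-203a-3p: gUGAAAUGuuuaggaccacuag
hsa-miR-203a-5p: aGUGGUUCuuaacaguucaacaguu
hsa-miR-205-5p: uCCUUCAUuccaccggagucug
The 3 seeds differ in their letters. The microRNAs themselves were not among the genes named on these arrays, so the rise of miR-203 was not measured here.

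The 12 arrays shared 1 scale, with array medians between 2.76 and 2.78, a lowest value of 2.36 and a highest of 13.95. Across the tested genes, arrays within a group correlated with r between 0.992 and 0.997, and miR-203 arrays correlated with scramble arrays with r between 0.972 and 0.981, where genes are not independent replicates. Luminal prostate markers were high, with 10 of 12 named above the array median on all 12 arrays, among them KLK3, TMPRSS2 and KRT18. Most markers of other cells were dim. All 12 named leukocyte and endothelial markers were above the median on none of the 6 arrays, and their linear levels summed to 62.6 to 63.4 on the miR-203 arrays and to 62.0 to 62.2 on the scramble arrays. The same held for 6 of 8 basal, 8 of 10 neuroendocrine and 10 of 14 fibroblast and smooth muscle markers. Summed over all named members, dim and bright, the basal markers came to 54.9 to 57.6 with miR-203 and 54.3 to 55.8 with scramble. The neuroendocrine markers summed to 362 to 425 with miR-203 and 450 to 480 with scramble, and the fibroblast and smooth muscle markers to 289 to 318 and 369 to 396. Most of the last 2 sums came from DDC, which makes dopamine, and FN1, fibronectin, which were bright. DDC differed by -0.29 and was called, except without miR-203 replicate 3 (-0.23), and FN1 fell by 0.43 ± 0.08. ACTA2 and VIM, at low levels, were also called lower, by 0.33 ± 0.11 and 0.28 ± 0.10. The ACTA2 call ended without any 1 miR-203 array, scramble replicate 2 or 3 or miR-205 replicate 1, and the VIM call without miR-203 replicate 1 or 2, scramble replicate 3 (-0.18), miR-130a replicate 1 or miR-205 replicate 1 or 3. The basal marker ITGA6 differed by 0.25 and was called, but not without miR-203 replicate 1 or 2 or scramble replicate 1 or 2, and was at -0.076 with the probe set of largest variance. The part of these markers in the results below was not tested.

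Many genes differed between miR-203 and scramble, mostly by modest amounts. Of 6821 genes, 2466 were called (36.2%), 1177 higher (17.3%) and 1289 lower (18.9%). The median difference over all tested genes was 0.01, and differences ran from -0.67 at percentile 5 to 0.54 at percentile 95. The median size of a called difference was 0.45, and 93.0% of called genes changed less than 2-fold. Counting genes that were dim in one group at the bound the array median allows, 172 genes changed at least 2-fold (2.52%), 58 higher (0.85%) and 114 lower (1.67%). For 3019 genes the 3 miR-203 arrays did not overlap the 3 scramble arrays (44.3%), and 2346 of the 2466 called genes were among them. The p-values reflect only how much these 12 cultures varied, and an exact permutation test of 3 arrays against 3 cannot give a p below 0.1. In bulk RNA from a culture, fewer cells of a kind and less RNA per cell cannot be told apart.

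**Figure D1:**
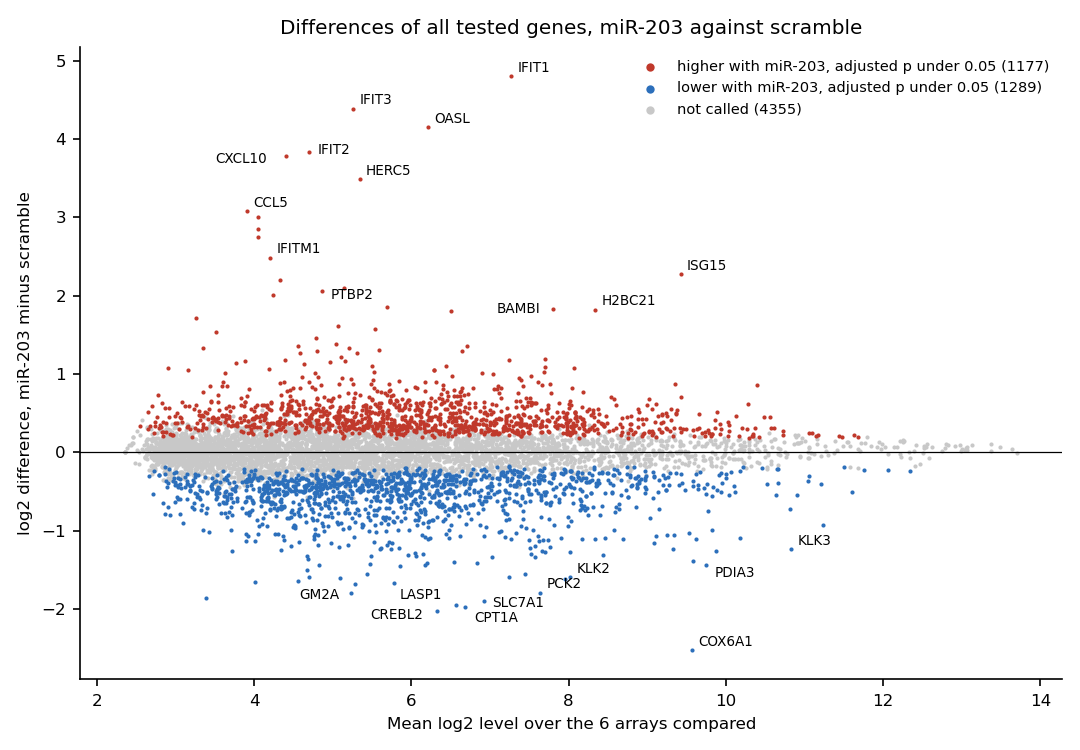
Difference between miR-203 and scramble (log2, vertical axis) against the mean log2 level over the 6 arrays (horizontal axis), 1 point per tested gene, red where higher and blue where lower at an adjusted p under 0.05. The largest increases reach 4.81 for IFIT1 and the largest decrease is -2.53 for COX6A1.

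The largest decreases were spread over metabolism, the cytoskeleton and secretion, and the first was a mitochondrial gene. COX6A1, a subunit of cytochrome c oxidase, had log2 levels of 7.97, 8.65 and 8.28 on the miR-203 arrays, against 10.77, 10.82 and 10.90 on the scramble arrays. Every miR-203 array lay far below every scramble array, and the gene fell by 2.53 ± 0.13, a 5.78-fold lower level (adjusted p = 1.96e-08). CREBL2, a leucine zipper protein related to CREB, had 4.99, 5.56 and 5.40 with miR-203, against 7.25, 7.46 and 7.32 with scramble. It fell by 2.03 ± 0.13, and the other probe sets of CREBL2 gave -1.92 and -1.65. CPT1A, which couples long-chain fatty acids to carnitine for entry into mitochondria, had 5.63, 5.86 and 5.61 with miR-203, against 7.62, 7.74 and 7.67 with scramble. It fell by 1.98 ± 0.08 on this probe set, while another probe set of CPT1A, close to the array median on all 6 arrays, differed by -0.04, so the probe sets disagree.

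LASP1, an actin-binding protein of focal adhesions and a described miR-203 target, had 5.36, 5.79 and 5.60 with miR-203, against 7.51, 7.51 and 7.60 with scramble. The groups were well separated, and LASP1 fell by 1.96 ± 0.10, a 3.88-fold lower level (adjusted p = 3.41e-08). SLC7A1, which imports arginine and lysine, had 5.68, 6.21 and 6.03 with miR-203, against 7.90, 7.78 and 7.94 with scramble. It fell by 1.90 ± 0.12, and its other bright probe sets gave -1.07 and -0.10. PCK2, the mitochondrial phosphoenolpyruvate carboxykinase, had 6.69, 6.96 and 6.59 with miR-203, against 8.49, 8.54 and 8.58 with scramble, and fell by 1.79 ± 0.09. GM2A, a lysosomal activator of ganglioside breakdown, fell by 1.80 ± 0.14, with -1.65 and -0.37 on its other bright probe sets.

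Further genes among the 15 largest decreases serve transport, signalling and the centrosome. RMDN3, which tethers mitochondria to the endoplasmic reticulum, fell by 1.68 ± 0.09. MAPKAPK3, a kinase activated by p38, fell by 1.67 ± 0.08, with a second probe set at -1.55. TXLNA, which binds syntaxins, and KIF5C, a heavy chain of kinesin-1, both fell by 1.65, with SEs of 0.14 and 0.08. CMTM6, which keeps PD-L1 at the cell surface, fell by 1.62 ± 0.13, and HMOX2, the constitutive heme oxygenase, by 1.61 ± 0.11. CETN3, a centrin of the centriole, fell by 1.60 ± 0.09. The kallikrein KLK2 closed the group and is described with the androgen-induced genes.

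The 15 largest increases held 14 genes known to be induced by interferon or retinoid signals and 1 splicing regulator. IFIT1, which binds foreign RNA at its 5′ end, had log2 levels of 9.71, 9.55 and 9.76 on the miR-203 arrays, against 4.98, 4.74 and 4.87 on the scramble arrays. The lowest miR-203 array was far above the highest scramble array, and IFIT1 rose by 4.81 ± 0.09, a 28.0-fold higher level (adjusted p = 9.9e-13). Its relatives IFIT3 and IFIT2 rose by 4.39 ± 0.12 and 3.84 ± 0.16, OASL, an oligoadenylate synthetase relative, by 4.15 ± 0.13, and HERC5, the ligase for ISG15, by 3.49 ± 0.11. PLAAT4, a phospholipase and acyltransferase first known as a retinoid response gene, rose by 2.20 ± 0.11. The exception was PTBP2, the neural relative of the splicing repressor PTBP1, with 5.82, 5.82 and 6.05 with miR-203, against 3.86, 3.96 and 3.70 with scramble. PTBP2 rose by 2.06 ± 0.12 (adjusted p = 9.6e-08), while PTBP1 had 6.62, 6.98 and 6.84 with miR-203, against 7.78, 7.90 and 7.85 with scramble, and fell by 1.03 ± 0.08. No alternative setting ended the call of any of these 30 genes.

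**Figure D2:**
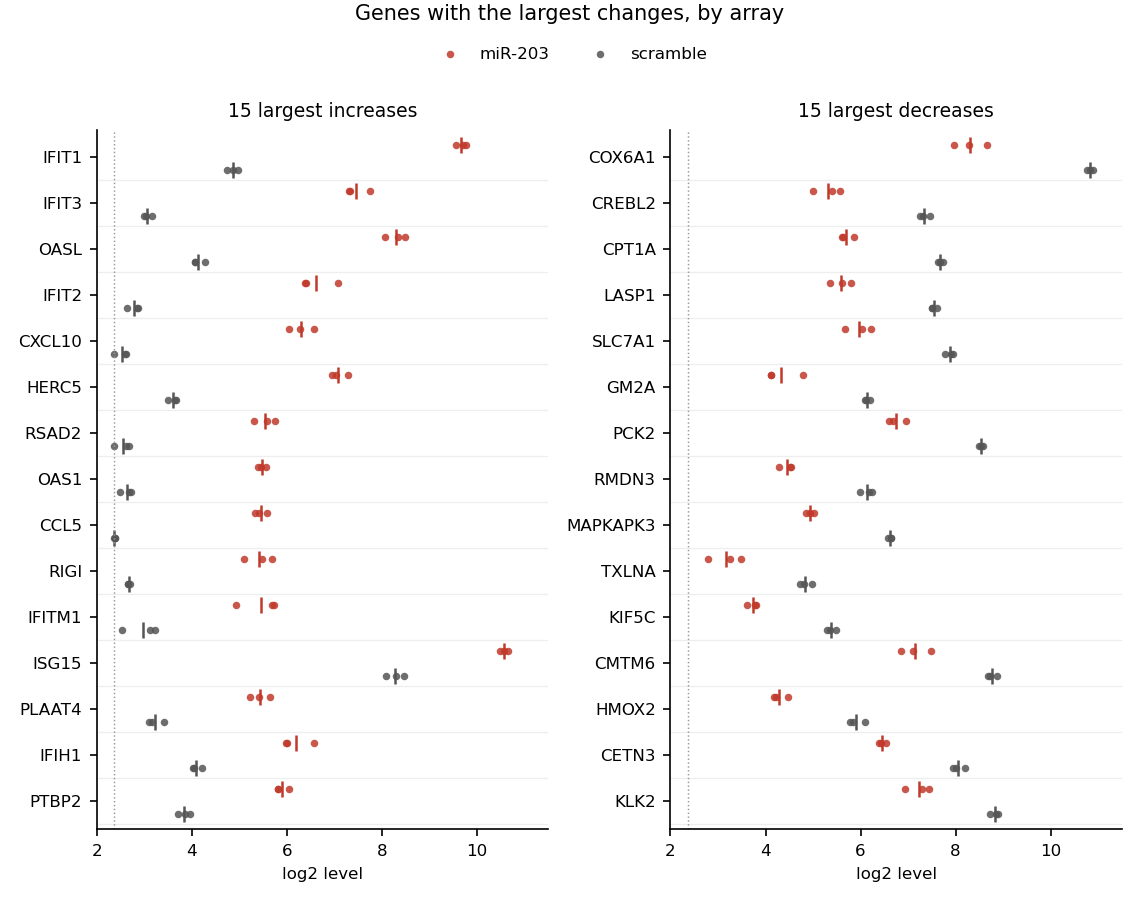
Log2 levels (horizontal axes) on each array for the 15 genes with the largest increases (left) and the 15 with the largest decreases (right), with miR-203 in red above scramble in grey. Points are arrays, short bars are group means and the dotted line is the lowest value of the table, 2.36. Only called genes whose 3 miR-203 arrays did not overlap the 3 scramble arrays were eligible, so the groups stand apart in every row by that rule.

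Some genes were called in 1 direction against each of the other groups, that is against scramble, miR-130a and miR-205. There were 483 such genes higher with miR-203 (7.08% of those tested) and 554 lower (8.12%), and the 3 comparisons share the 3 miR-203 arrays. Genes high with miR-203 alone were led by PTBP2, at 2.10 above miR-130a and 1.69 above miR-205. COLEC12, a scavenger receptor of the collectin family, had 6.38, 6.25 and 6.35 with miR-203, 4.96, 4.95 and 4.65 with miR-130a, 4.37, 4.39 and 4.62 with miR-205, and 4.62, 4.99 and 4.65 with scramble. Only the miR-203 arrays were above 6 in COLEC12, which rose by 1.57 ± 0.12 over scramble. PITX1, a homeobox transcription factor, rose by 1.46 ± 0.12 over scramble, and DUSP2, a nuclear phosphatase of MAP kinases, by 1.62 ± 0.12. GCG, the glucagon precursor gene, had 4.53, 4.14 and 4.18 with miR-203 and was above the array median on no scramble array, which puts it at least 2.87-fold higher. BAMBI, a decoy receptor of TGF-beta signalling, had 8.74, 8.74 and 8.66 with miR-203, against 6.84, 6.80 and 7.01 with scramble, and rose by 1.83 ± 0.09. GPR137B, a lysosomal membrane protein, CAMK2N1, an inhibitor of the kinase CaMKII, and ST3GAL1, a sialyltransferase, rose by 1.10 ± 0.11, 1.09 ± 0.10 and 1.05 ± 0.11, and GRAMD2B by 1.17 ± 0.08.

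Genes low with miR-203 alone included COX6A1, CREBL2, LASP1, GM2A, TXLNA, KIF5C, CMTM6 and KLK2 of the decreases given above. COX6A1 had 10.45, 10.45 and 10.40 with miR-130a and 10.87, 10.88 and 10.79 with miR-205, levels that the miR-203 arrays did not approach. APPBP2, which binds the amyloid precursor protein, was 1.56 ± 0.10 lower than in scramble arrays and differed by -2.24 from miR-205 arrays. Its other bright probe sets differed by 0.09 and -1.68 from scramble, so they disagree. DCTN6, a subunit of the dynactin complex, was 1.55 ± 0.11 lower than in scramble arrays and 1.65 and 1.64 lower than in miR-130a and miR-205 arrays.

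Antiviral effector genes, which interferon induces and whose products block viral replication, were higher with miR-203. Of 46 members named, 38 were tested; 24 rose, 0 fell and 14 were not called, with a median difference of 0.50. Over all tested genes 17.3% rose and the median was 0.01. Of the 38, 10 were above the array median on no scramble array and were tested because other arrays were bright, so the count describes the tested members only. Among the 24 members above the median on all 12 arrays, 17 rose and 0 fell. The tested members averaged 5.29, 5.29 and 5.22 on the miR-203 arrays and 4.08, 4.01 and 4.05 on the scramble arrays.

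ISG15, a ubiquitin-like modifier, had 10.65, 10.56 and 10.48 with miR-203, against 8.09, 8.30 and 8.46 with scramble. It rose by 2.28 ± 0.10, from the brightest scramble level of the effectors in the 15 largest increases. IFI44, whose product gathers in the cytoplasm of interferon-treated cells, had 5.39, 5.09 and 5.26 with miR-203, against 3.13, 3.35 and 3.24 with scramble, and rose by 2.01 ± 0.10. The mitochondrial IFI6 rose by 1.80 ± 0.10, and DDX60, a helicase that aids RNA sensing, by 1.29 ± 0.12. IFITM1, a membrane protein that hinders virus entry, rose by 2.49 ± 0.23, and its relative IFITM3 by 0.78 ± 0.09. OAS1, which makes the activator of RNase L, and RSAD2, viperin, were dim on all scramble arrays and were at least 6.56-fold and at least 6.90-fold higher. Effectors that were not called included ADAR, an RNA editor, at 0.04 and OAS3 at 0.34. USP18, which removes ISG15 and damps interferon receptor signals, rose by 0.66 ± 0.11.

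Of the sensors and signalling genes of the same pathway, 33 were named and 22 tested; 7 rose, 4 fell and 11 were not called, with a median of 0.16. Over all tested genes 17.3% rose and 18.9% fell, so the 4 that fell are near the background share. RIGI, a cytosolic sensor of RNA with a 5′ triphosphate, had 5.68, 5.10 and 5.47 with miR-203 and 2.71, 2.66 and 2.66 with scramble, where it was dim, and was at least 6.30-fold higher. IFIH1, the sensor of long double-stranded RNA, had 5.99, 6.01 and 6.57 with miR-203, against 4.22, 4.03 and 4.04 with scramble, and rose by 2.09 ± 0.19. The kinase EIF2AK2, which double-stranded RNA activates, differed by 0.18 ± 0.11 and did not pass. MYD88, the adaptor of most Toll-like receptors, had 5.11, 5.65 and 5.25 with miR-203, against 6.37, 6.41 and 6.23 with scramble, and fell by 1.00 ± 0.12.

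IFNB1, the interferon beta gene, had 2.74, 2.47 and 2.49 with miR-203, against 2.36, 2.37 and 2.37 with scramble. All 6 values lay at or below the array medians, the difference did not pass (adjusted p = 0.137), and no fold is given. With miR-130a the same gene had 5.28, 5.06 and 4.87, above all miR-203 arrays. IFNGR2, a chain of the interferon gamma receptor, rose by 0.52 ± 0.11, while IFNAR2, of the type I receptor, differed by 0.03 and did not pass. The kinase TYK2, bound to that receptor, fell by 0.45 ± 0.09, and the transcription factor STAT3 rose by 0.38 ± 0.10. IRF9, the DNA-binding part of the interferon-stimulated complex ISGF3, had 4.38, 4.23 and 4.41 with miR-203, against 3.26, 3.02 and 3.32 with scramble, and rose by 1.14 ± 0.10. IRF1 rose by 0.52 ± 0.11.

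Of 13 chemokine genes named, only CXCL10, CCL5 and CXCL11 were bright enough to be tested, and all were dim on the scramble arrays. CXCL10, which attracts activated T cells, had 6.28, 6.57 and 6.05 with miR-203 and was at least 11.6-fold higher. CCL5, a chemokine of T cells and monocytes, had 5.59, 5.34 and 5.42 and was at least 6.44-fold higher. Class I antigen presentation genes moved little, with 2 of 15 higher, 1 lower and a median of 0.06, where 17.3% of all tested genes rose and 18.9% fell. HLA-E, a ligand of natural killer cell receptors, rose by 0.35 ± 0.09, and PDIA3, which folds class I heavy chains among other glycoproteins, fell by 1.44 ± 0.09. In the NF-kB pathway 1 of 12 tested genes rose and 0 fell.

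The level of the effectors with miR-203 lay between those of the other microRNAs. Against miR-130a, where 21.1% of all tested genes were lower with miR-203, 32 of the 38 effectors were lower and 0 higher, with a median of -0.94. Against miR-205, where 21% of all tested genes were higher with miR-203, 27 were higher and 0 lower, with a median of 0.61. The 38 include the 10 that were dim on all scramble arrays and were tested because other arrays were bright. These counts thus describe the tested members only. The 24 members above the median on all 12 arrays were not counted separately against miR-130a or miR-205. IFIT1 had 9.71, 9.55 and 9.76 with miR-203, 11.54, 11.71 and 11.54 with miR-130a, and 5.61, 5.77 and 5.76 with miR-205. The IFIT1 level with miR-203 was 1.92 below miR-130a and 3.96 above miR-205. CXCL10 was 3.65 lower with miR-203 than with miR-130a.

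**Figure D3:**
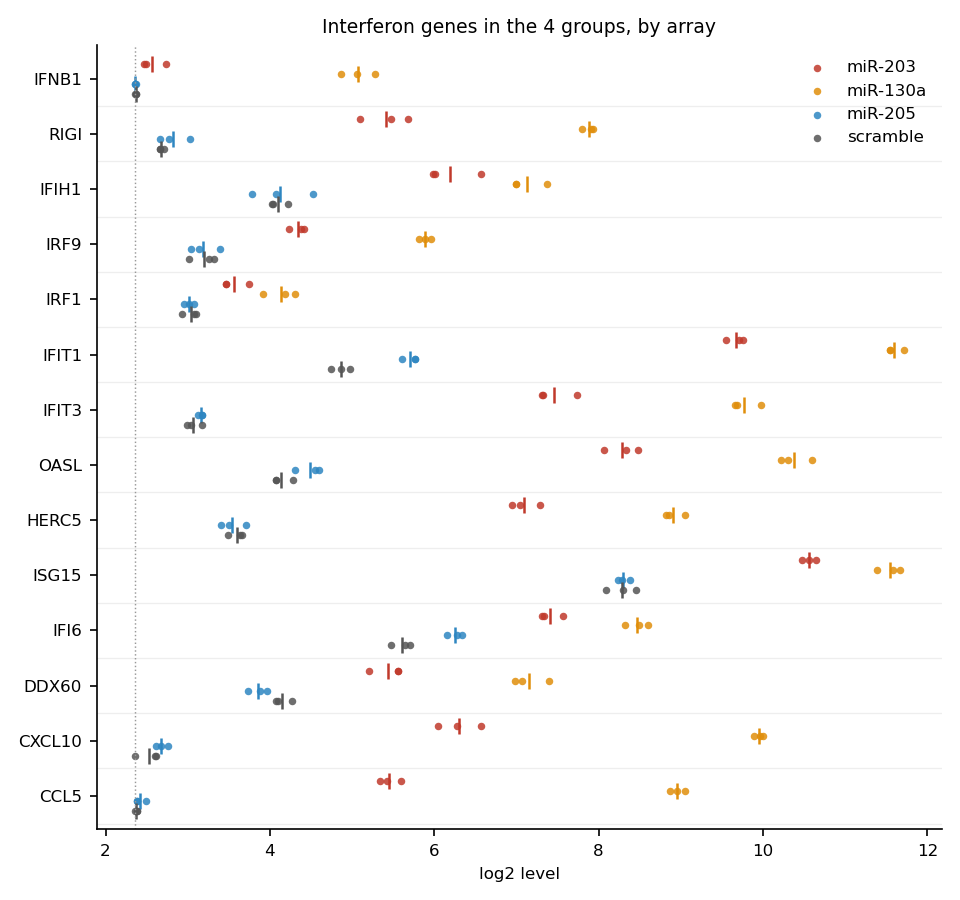
Log2 levels (horizontal axis) of 14 interferon genes on each of the 12 arrays, with the groups from top to bottom in each row miR-203, miR-130a, miR-205 and scramble. Points are arrays, short bars are group means and the dotted line is the lowest value of the table. IFNB1 is near the floor in all groups except miR-130a, while IFIT1, IFIT3 and OASL with miR-203 lie between miR-130a and the other groups.

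The promoters of the effectors were searched for the interferon-stimulated response element, to which ISGF3 and interferon regulatory factors bind. The letters searched were GAAA, any 2 bases and GAAA, on both strands, in the RefSeq windows of 300 bases (250 before and 50 after the start site, GRCh38.p14). Of the tested effectors 30 had a window, and 21 of them held a match (70%), against 2.96% of 5737 tested genes with a window and 3.65% of all windows of the table. Matches were present in 14 of 19 effectors that rose (73.7%) and in 7 of 11 that were not called (63.6%). The stretches below belong to effectors described above and are shown in the direction of the gene. Their positions are chr10:89392487-89392536 (plus strand) for IFIT1, chr10:89327821-89327870 (plus) for IFIT3, chr4:88456974-88457023 (plus) for HERC5, chr1:1013364-1013413 (plus) for ISG15 and chr4:168318811-168318860 (minus) for DDX60, and capitals mark the match on either strand.
IFIT1: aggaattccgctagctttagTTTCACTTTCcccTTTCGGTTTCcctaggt
IFIT3: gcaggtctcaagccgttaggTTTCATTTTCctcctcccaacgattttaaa
HERC5: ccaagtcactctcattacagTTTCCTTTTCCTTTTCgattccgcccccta
ISG15: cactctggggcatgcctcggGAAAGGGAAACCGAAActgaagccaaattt
DDX60: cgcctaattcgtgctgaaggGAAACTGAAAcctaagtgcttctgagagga
A match is a description of these letters and was not tested for binding.

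Genes of the ATF4 amino acid response fell together with miR-203. ATF4 is a transcription factor whose translation rises when amino acids are short or proteins misfold, and its targets make and import amino acids and charge transfer RNAs. Of 33 tested members 25 fell, 1 rose and 7 did not pass, with a median of -0.70, where 18.9% of all tested genes fell. The tested members averaged 6.91, 6.90 and 6.83 on the miR-203 arrays and 7.50, 7.53 and 7.58 on the scramble arrays. ATF4 itself had 8.99, 9.09 and 8.96 with miR-203, against 10, 9.99 and 10.16 with scramble. Its arrays did not overlap, and ATF4 fell by 1.03 ± 0.07 (adjusted p = 3.17e-07). DDIT3, also called CHOP, fell by 1.10 ± 0.14, and CEBPB and CEBPG, which partner with ATF4, by 0.41 ± 0.08 and 0.51 ± 0.07.

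Among the targets, TRIB3, a pseudokinase that feeds back on ATF4, had 7.02, 7.24 and 6.94 with miR-203, against 8.38, 8.12 and 8.53 with scramble, and fell by 1.28 ± 0.11. ASNS, asparagine synthetase, had 8.79, 8.79 and 8.60 with miR-203, against 9.78, 9.78 and 9.80 with scramble, and fell by 1.06 ± 0.10. CHAC1, which degrades glutathione, fell by 1.20 ± 0.14, and the proline-making enzyme PYCR1 by 1.13 ± 0.09. Serine synthesis enzymes fell as well, PSAT1 by 0.80 ± 0.12 and PHGDH by 0.71 ± 0.10. The transporter SLC7A11, which imports cystine, fell by 0.86 ± 0.09, and SLC1A4, a carrier of neutral amino acids, by 1.00 ± 0.09. The 1 member that rose was SLC38A2, a glutamine transporter, by 0.30 ± 0.09.

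Aminoacyl-tRNA synthetases, several of which are ATF4 targets, were counted by compartment. Of 16 cytosolic enzymes 7 fell and 0 rose, while of 9 mitochondrial enzymes 1 fell and 2 rose. Among all tested genes 18.9% fell and 17.3% rose, and the few mitochondrial calls are near those shares. GARS1, for glycine, had 9.04, 8.96 and 8.67 with miR-203, against 10.36, 10.15 and 10.34 with scramble, and fell by 1.39 ± 0.09. AARS1, for alanine, fell by 1.31 ± 0.09, and HARS1, for histidine, by 0.63 ± 0.09. KARS1, for lysine, and LARS1, for leucine, differed by 0.10 and -0.01 and did not pass. WARS2, the mitochondrial enzyme for tryptophan, rose by 0.67 ± 0.10.

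Levels of the ATF4 genes were below scramble in all 3 microRNA groups. The tested members averaged 6.83 to 6.84 on the miR-130a arrays and 6.67 to 6.74 on the miR-205 arrays, against 7.50 to 7.58 on the scramble arrays. Against the other microRNAs the ATF4 genes had calls in both directions. Against miR-130a, where 20.1% of all tested genes were higher with miR-203, 9 of the 33 were higher and 6 lower, and against miR-205 14 were higher and 4 lower. Over all tested genes 21.1% were lower than with miR-130a, and 21% were higher and 16.9% lower than with miR-205. PCK2 had 6.90, 6.90 and 6.92 with miR-130a and 6.56, 6.64 and 6.57 with miR-205, and its differences of -0.16 and 0.16 from miR-203 did not pass. Of the 33 members, 3 were lower with miR-203 than in each other group, a share near the 8.12% of all tested genes. Among them were SLC7A1, 1.40 below miR-130a and 1.55 below miR-205, and PYCR1, 0.62 below miR-130a and 0.82 below miR-205.

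The composite element that ATF4 and C/EBP proteins share was searched as TGATGNAA on both strands in the same windows. It was found in 5 of 26 windows of the ATF4 genes (19.2%) and 6 of 22 of the synthetases (27.3%), against 1.5% of tested genes. It was in 4 of 19 ATF4 genes that fell (21.1%) and 1 of 6 not called (16.7%), and in the synthetases in 2 of 8 that fell (25%), 1 of 2 that rose (50%) and 3 of 12 not called (25%). Stretches around the match are shown for CHAC1 (chr15:40953242-40953289, plus strand) and ASNS (chr7:97872449-97872496, minus strand), which both fell.
CHAC1: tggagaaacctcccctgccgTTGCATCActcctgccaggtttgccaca
ASNS: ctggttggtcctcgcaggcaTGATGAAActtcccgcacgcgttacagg
Capitals mark the match, on the other strand in CHAC1.

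Chaperones and degradation genes of the endoplasmic reticulum, which fold new secretory proteins and remove the failed ones, also fell with miR-203. Of 34 tested members 21 fell, 1 rose and 12 did not pass, with a median of -0.37, where 18.9% of all tested genes fell and 17.3% rose. By role, 13 of 20 chaperones fell and 0 rose, 6 of 10 degradation genes fell and 1 rose, and 2 of 4 sensors and factors fell. PDIA3, a disulfide isomerase for glycoproteins, had 8.84, 9.26 and 9.01 with miR-203, against 10.42, 10.50 and 10.49 with scramble. Its groups were clearly separate, and it fell by 1.44 ± 0.09, a 2.71-fold lower level. MANF, a stress-induced secreted protein, had 6.64, 6.84 and 6.66 with miR-203, against 8.01, 7.69 and 7.78 with scramble, and fell by 1.11 ± 0.09. PPIB, a prolyl isomerase also known as cyclophilin B, fell by 0.92 ± 0.09, and PDIA4 by 0.84 ± 0.09.

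HSPA5, the main chaperone of the compartment, also called BiP, had 10.74, 10.92 and 10.92 with miR-203 and 11.23 on each of the 3 scramble arrays. The decrease of 0.37 ± 0.07 was small and called (adjusted p = 0.00136). HSP90B1, or GRP94, fell by 0.40 ± 0.08, and the lectin chaperone CANX by 0.35 ± 0.07. DNAJC10, a reductase of disulfides, fell by 0.89 ± 0.12, and EDEM1, which hands misfolded glycoproteins to degradation, by 0.57 ± 0.10. CREB3L2, a membrane-bound transcription factor of the secretory pathway, had 4.0, 4.50 and 4.36 with miR-203, against 5.48, 5.15 and 5.17 with scramble, and fell by 0.98 ± 0.14. The kinase EIF2AK3, also called PERK, and the stress sensor ATF6 differed by -0.25 and -0.13 and did not pass.

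Many of these genes were also lower with miR-203 than with the other microRNAs. Against miR-130a 17 of the 34 were lower and 3 higher, against miR-205 19 were lower and 2 higher, and 11 were lower than in each other group. Over all tested genes 21.1% were lower than with miR-130a, 16.9% lower than with miR-205 and 8.12% lower than in each other group. The tested members averaged 6.53, 6.63 and 6.58 on the miR-203 arrays, between 6.81 and 6.85 on the miR-130a arrays, between 6.88 and 6.89 on the miR-205 arrays and between 6.96 and 6.99 on the scramble arrays. PDIA3 was 1.10 lower than with miR-130a and 1.53 lower than with miR-205.

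The endoplasmic reticulum stress response element, bound by ATF6 with NF-Y, was searched as CCAAT, any 9 bases and CCACG on both strands, and each match holds a CCAAT box. It was rare, in 10 of 5737 windows of tested genes (0.174%), and 6 of those 10 belonged to the list (6 of 32 windows, 18.8%). Of its members that fell, 5 of 19 held it (26.3%), against 1 of 12 that were not called (8.33%). Stretches are shown for 3 genes that fell, HSPA5 (chr9:125241371-125241429, minus strand), HSP90B1 (chr12:103930196-103930254, plus) and CRELD2 (chr22:49918534-49918592, plus), a folding factor that fell by 0.68 ± 0.07.
HSPA5: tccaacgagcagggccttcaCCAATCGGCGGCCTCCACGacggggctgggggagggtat
HSP90B1: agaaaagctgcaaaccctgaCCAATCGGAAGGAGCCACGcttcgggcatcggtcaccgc
CRELD2: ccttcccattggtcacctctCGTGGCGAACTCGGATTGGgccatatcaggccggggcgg
Capitals mark the match, on the other strand in CRELD2.

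Genes that move proteins into and out of the same compartment followed in part. Of 39 tested genes of the translocon and the vesicle coats 17 fell and 4 rose, with a median of -0.17. For comparison with the counts here, 18.9% of all tested genes fell and 17.3% rose. SEC61B, a subunit of the translocon channel, had 8.53, 8.95 and 8.64 with miR-203, against 10.03, 9.83 and 9.96 with scramble, and fell by 1.23 ± 0.10. SSR2, of the translocon-associated complex, had 7.38, 7.50 and 7.27 with miR-203, against 8.63, 8.63 and 8.71 with scramble, and fell by 1.28 ± 0.08. Of 9 genes of the COPI coat, which returns cargo from the Golgi, 5 fell and 0 rose, with COPE at -0.63 ± 0.10 and COPB2 at -0.59 ± 0.09. Of 10 COPII genes, for export, 5 fell and 3 rose. The COPII subunit SEC24A fell by 0.92 ± 0.16, while the small GTPase SAR1B, which starts the coat, rose by 0.56 ± 0.08. In N-glycosylation 9 of 26 tested genes fell and 0 rose, among them STT3A, a catalytic subunit of oligosaccharyltransferase, by 0.45 ± 0.09.

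Androgen-induced genes, which androgen switches on in luminal prostate cells, were lower with miR-203. Of 32 tested members 20 fell, 0 rose and 12 did not pass, with a median of -0.38, where 18.9% of all tested genes fell. KLK3, which encodes prostate-specific antigen, had 10.14, 10.34 and 10.15 with miR-203, against 11.36, 11.48 and 11.50 with scramble. The arrays did not overlap, and KLK3 fell by 1.24 ± 0.08, with -1.27 on its second probe set. KLK2, a kallikrein of the same cluster, had 6.94, 7.43 and 7.29 with miR-203, against 8.73, 8.89 and 8.84 with scramble, and fell by 1.60 ± 0.11. TMPRSS2, a membrane serine protease, had 7.01, 6.93 and 6.66 with miR-203, against 7.92, 8.28 and 8.30 with scramble, and fell by 1.30 ± 0.11. ABCC4, an exporter of cyclic nucleotides and prostaglandins, fell by 0.99 ± 0.08, CENPN, a centromere protein, by 1.11 ± 0.10, and the lipid droplet protein TPD52 by 0.53 ± 0.07. FKBP5, a cochaperone of steroid receptors, had 2.92, 3.20 and 3.55 with miR-203, against 3.86, 3.73 and 4.06 with scramble, and fell by 0.66 ± 0.15.

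These genes were also lower with miR-203 than with the other microRNAs. Against miR-130a 22 of 32 were lower and 1 higher, against miR-205 25 were lower and 0 higher, and 16 were lower than in each other group, where the shares over all tested genes were 21.1%, 16.9% and 8.12%. KLK3 had 11.11, 11.24 and 11.17 with miR-130a and 12.06, 12.04 and 11.93 with miR-205. Its lowest level was thus with miR-203, 0.96 below miR-130a and 1.80 below miR-205. Not every luminal gene fell. ACP3, prostatic acid phosphatase, had 7.86, 7.88 and 7.95 with miR-203, against 7.26, 7.22 and 7.34 with scramble, and rose by 0.63 ± 0.07. The luminal marker STEAP1 fell by 0.41 ± 0.08.

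Coregulators and partner factors of androgen signalling did not move as a group, with 7 of 31 higher, 6 lower and a median of 0.01. These counts are near the shares over all tested genes, 17.3% higher and 18.9% lower. The pioneer factors FOXA1 and HOXB13, which open chromatin at luminal enhancers, differed by -0.04 and 0.03 and did not pass. MED1, the Mediator subunit that nuclear receptors contact, had 7.52, 7.13 and 7.52 with miR-203, against 6.20, 5.69 and 6.20 with scramble, and rose by 1.36 ± 0.14. The coactivator NCOA2 rose by 0.69 ± 0.11, the histone demethylase KDM3A by 0.53 ± 0.13 and the acetyltransferase CREBBP by 0.54 ± 0.12. Among corepressors TBL1XR1 fell by 0.66 ± 0.13 and NRIP1 rose by 0.45 ± 0.10.

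**Figure D4:**
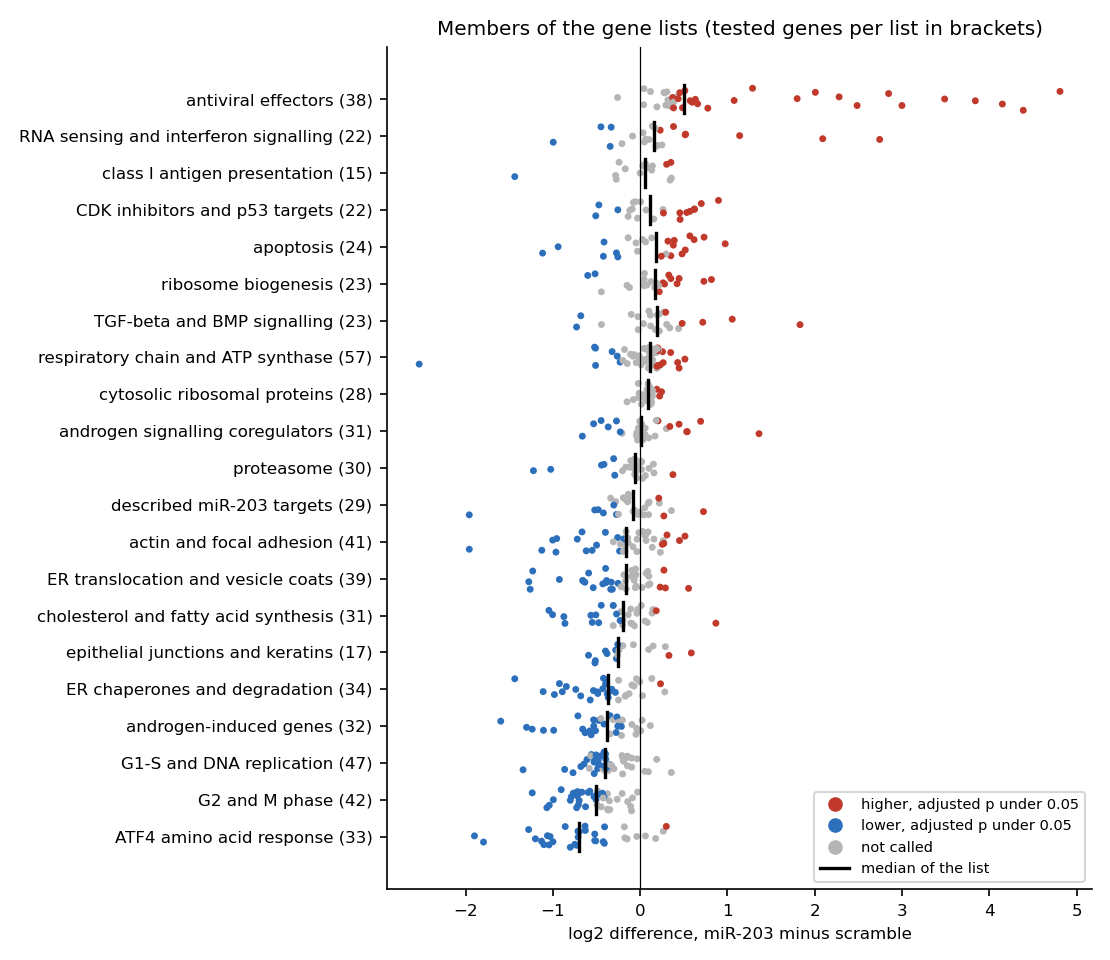
Differences between miR-203 and scramble (log2, horizontal axis) of the tested members of 21 gene lists, 1 point per gene, red where higher and blue where lower at an adjusted p under 0.05, with a black bar at the list's median. The ATF4 list has the lowest median at -0.70 and the antiviral effectors the highest at 0.50, while most medians lie near 0.

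Genes of the cell cycle fell, with differences between the miR-203 arrays. Of 47 tested genes of G1-S and DNA replication 25 fell and 0 rose, with a median of -0.40. Of 42 tested genes of G2 and M phase 26 fell and 0 rose, with a median of -0.50. Over all tested genes 18.9% fell. The G2 and M members averaged 4.76, 5.29 and 5.16 on miR-203 replicates 1, 2 and 3, against 5.67, 5.68 and 5.47 on the scramble arrays. Replicate 1 was the lowest of the miR-203 arrays in both lists, and for G1-S the averages were 5.34, 5.58 and 5.56, against 5.91, 5.90 and 5.79. Without miR-203 replicate 1 the G2 and M count that fell was 15, and without scramble replicate 1 it was 16. With no filter on dim probe sets, which tests more genes, the counts that fell were 14 for G2 and M and 13 for G1-S.

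RRM2, the regulated subunit of ribonucleotide reductase, which supplies deoxynucleotides, had 6.70, 7.02 and 7.0 with miR-203, against 8.39, 8.14 and 8.22 with scramble. It fell by 1.34 ± 0.15, and its partner RRM1 by 0.53 ± 0.13. The replicative helicase subunits MCM2, MCM6 and MCM7 fell by 0.53 ± 0.10, 0.56 ± 0.11 and 0.61 ± 0.13. GINS2, which joins that helicase, fell by 0.86 ± 0.16, and CDC6, which loads it, by 0.77 ± 0.15. Of the 11 G1-S regulators 1 fell (9.09%) and 0 rose, where 18.9% of all tested genes fell and 17.3% rose. That 1 was cyclin D3, CCND3, with 6.09, 6.06 and 5.83 with miR-203, against 6.65, 6.58 and 6.68 with scramble, a decrease of 0.64 ± 0.08. Cyclin E1, CCNE1, and cyclin D1, CCND1, differed by 0.36 and 0.19 and did not pass.

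In G2 and M phase, TPX2, which activates Aurora A on the spindle, had 4.85, 5.30 and 4.80 with miR-203, against 6.17, 6.42 and 6.07 with scramble, and fell by 1.24 ± 0.16. HMMR, a spindle and hyaluronan-binding protein, had 5.96, 6.69 and 6.55 with miR-203, against 7.53, 7.51 and 7.36 with scramble, and fell by 1.07 ± 0.17. The groups stood apart in both genes, with replicate 1 or 3 lowest. The transcription factor FOXM1, which drives this programme, fell by 1.04 ± 0.19, CDC20, the activator of the anaphase-promoting complex, by 0.99 ± 0.19, and the kinases AURKA and AURKB by 0.79 ± 0.16 and 0.67 ± 0.13. MKI67, the proliferation marker, had 3.72, 3.54 and 3.74 with miR-203, against 4.09, 4.21 and 4.42 with scramble, and fell by 0.58 ± 0.11, a call that ended with the probe set of largest variance. CDK1, the mitotic kinase, had 8.14, 8.82 and 8.77, against 8.97, 9.05 and 8.80, and did not pass (adjusted p = 0.0968).

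Cell cycle levels with miR-203 lay between those of miR-130a and miR-205. Against miR-130a 41 of 42 G2 and M genes were lower with miR-203 and 0 higher, and against miR-205 29 were higher and 0 lower. For G1-S 36 of 47 were lower than with miR-130a and 25 higher than with miR-205, with 0 in the opposite direction in both. Over all tested genes 21.1% were lower than with miR-130a and 21% higher than with miR-205. The motif TTTGAA, the core of the cell cycle homology region that late cell cycle promoters share, was searched on both strands of the same windows. It was present in 22 of 34 windows of G2 and M genes (64.7%), in 3 of 41 of G1-S genes (7.32%) and in 9.08% of those of tested genes. Among G2 and M genes it was in 12 of 20 that fell (60%) and 10 of 14 that were not called (71.4%).

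**Figure D5:**
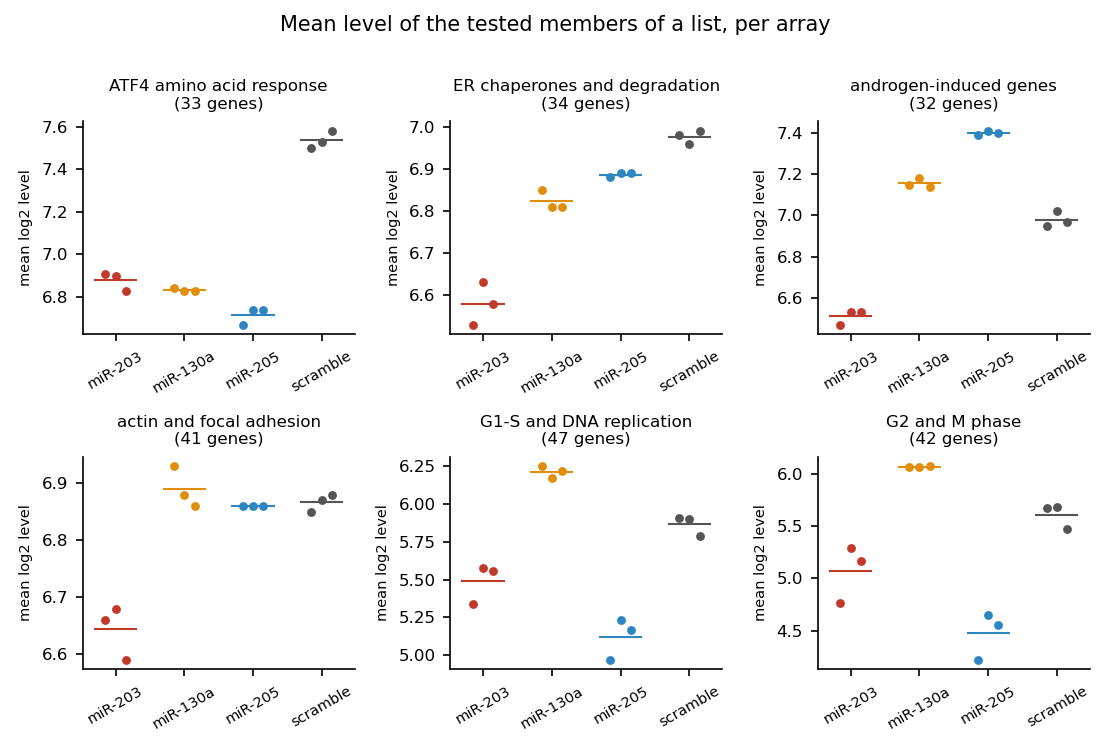
Mean log2 level of the tested members of 6 gene lists (vertical axes, not starting at 0) on each array, with the groups from left to right miR-203, miR-130a, miR-205 and scramble, points for replicates 1 to 3 and bars for group means. The ATF4 list is below scramble in all 3 microRNA groups, the lists of the endoplasmic reticulum, androgen-induced and actin genes are lowest with miR-203, and miR-203 lies between miR-130a and miR-205 for both cell cycle lists.

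Of 22 tested genes that p53 activates or that inhibit cyclin-dependent kinases, 9 rose and 3 fell, with a median of 0.11, where 17.3% of all tested genes rose and 18.9% fell. CDKN1A, the p21 inhibitor, had 9.64, 9.42 and 9.37 with miR-203, against 9.19, 8.73 and 9.14 with scramble, and rose by 0.46 ± 0.12, a call that ended when only the 6 arrays compared were fitted. ZMAT3, an RNA-binding p53 target, had 6.84, 6.67 and 6.77, against 5.67, 6.03 and 5.89, and rose by 0.90 ± 0.11. The cyclin CCNG1 rose by 0.62 ± 0.06, GADD45A, a stress and repair gene, by 0.62 ± 0.08, and TIGAR, a fructose bisphosphatase, by 0.70 ± 0.10. The repair genes XPC and DDB2, also known p53 targets, fell by 0.51 ± 0.09 and 0.47 ± 0.12.

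Of 24 tested apoptosis genes 11 rose and 6 fell, with a median of 0.19, where 17.3% of all tested genes rose and 18.9% fell. PMAIP1, the BH3-only protein NOXA, had 8.23, 7.78 and 8.04 with miR-203, against 7.06, 6.90 and 7.16 with scramble, and rose by 0.97 ± 0.12. BIK, another BH3-only protein, rose by 0.62 ± 0.13, and the death receptor FAS by 0.57 ± 0.10. BCL2L1, which encodes the survival protein BCL-XL, had 3.80, 3.69 and 3.61, against 4.48, 4.88 and 4.55, and fell by 0.94 ± 0.12. The mitophagy receptors moved apart, with BNIP3 higher by 0.52 ± 0.07 and BNIP3L lower by 1.12 ± 0.10 on its brightest probe set and at 0.07 on another.

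Of 31 tested genes of cholesterol and fatty acid synthesis 12 fell and 2 rose, with a median of -0.20, and 10 were lower than in each other group, where the shares over all tested genes were 18.9% lower, 17.3% higher and 8.12% lower than each. SCAP, the escort of sterol regulatory element-binding proteins, had 5.80, 5.63 and 5.54 with miR-203, against 6.52, 6.46 and 6.57 with scramble, and fell by 0.86 ± 0.09. INSIG2, which holds that escort back, had 6.08, 5.75 and 5.93, against 4.99, 4.97 and 5.21, and rose by 0.87 ± 0.10. The transcription factors SREBF2 and SREBF1 fell by 0.56 ± 0.09 and 0.31 ± 0.08, the epoxidase SQLE by 1.00 ± 0.11, ACAT2, the cytosolic thiolase, by 1.04 ± 0.11, and the desaturase FADS2 by 0.87 ± 0.12. HMGCS1, the synthase at the start of the sterol branch, differed by -0.04 and did not pass. In fatty acid oxidation 6 of 25 genes fell and 3 rose, near those shares, and apart from CPT1A the named decreases were ECI2 and HSD17B4, at -0.44 ± 0.06 and -0.36 ± 0.07.

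Without COX6A1, 56 tested genes of the respiratory chain and ATP synthase differed by between -0.52 and 0.51, less than COX6A1. Of these 12 rose and 6 fell, with a median of 0.12, where 17.3% of all tested genes rose and 18.9% fell. COX7A2, another subunit of complex IV, had 9.84, 9.88 and 9.85 with miR-203, against 10.33, 10.29 and 10.49 with scramble, and fell by 0.51 ± 0.07. COX11, a copper assembly factor, rose by 0.51 ± 0.07, and SDHD, a membrane anchor of complex II, by 0.43 ± 0.08. In glycolysis and hypoxia 5 of 27 genes rose and 4 fell, with hexokinase HK2 up by 0.88 ± 0.12 and the muscle-type phosphofructokinase PFKM by 0.61 ± 0.09.

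Actin and focal adhesion genes were lower in 14 of 41 cases and higher in 5, with a median of -0.16, and 9 were lower than in each other group, where 18.9% of all tested genes fell, 17.3% rose and 8.12% were lower than each. TPM1, a tropomyosin, had 6.93, 7.15 and 7.27 with miR-203, against 8.31, 8.11 and 8.30 with scramble, and fell by 1.13 ± 0.09, with -1.11 and -0.87 on its other probe sets. PFN2, a profilin, had 6.94, 7.09 and 6.90, against 7.92, 7.97 and 7.93, and fell by 0.96 ± 0.08. WASF2, which activates branched actin growth, fell by 0.96 ± 0.11, ZYX, the adhesion protein zyxin, by 1.00 ± 0.18, and ITGB1, the beta chain shared by many integrins, by 0.72 ± 0.08. Vinculin, VCL, and the kinase ROCK1 rose by 0.45 ± 0.09 and 0.51 ± 0.08. Of 17 tested junction and keratin genes 8 fell and 2 rose, with the tight junction scaffold TJP1 at -0.59 ± 0.09, the desmosomal cadherin DSG2 at -0.52 ± 0.10 and occludin, OCLN, at 0.59 ± 0.12. E-cadherin, CDH1, differed by -0.08 and did not pass.

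Of 23 tested genes of TGF-beta and BMP signalling, 5 were called higher (21.7%) and 2 lower (8.70%), with a median of 0.20. The shares over all tested genes were 17.3% higher and 18.9% lower, so the share that rose was near the background. Besides BAMBI, TGFBR3, a coreceptor also called betaglycan, had 3.59, 3.89 and 3.58 with miR-203, against 2.81, 2.48 and 2.61 with scramble, and rose by 1.06 ± 0.12. SMAD2, which carries the signal to the nucleus, had 6.81, 6.82 and 6.86, against 6.28, 6.05 and 6.01, and rose by 0.72 ± 0.10. GDF15, a stress-induced ligand of the family, had 10.65, 10.43 and 10.25, against 11.01, 11.21 and 11.31, and fell by 0.73 ± 0.10.

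In the EGFR-RAS-ERK growth factor pathway 7 of 24 genes rose and 2 fell, and in PI3K-AKT-mTOR signalling 1 of 22 rose and 1 fell, where 17.3% of all tested genes rose and 18.9% fell. GRB2, the adaptor that links receptors to RAS, had 6.67, 6.48 and 6.54 with miR-203, against 5.83, 5.78 and 5.74 with scramble, and rose by 0.78 ± 0.08. ERBB3, a receptor of neuregulins, rose by 0.54 ± 0.09, and ERBB2 fell by 0.37 ± 0.10. EGR1, an immediate early gene, rose by 0.47 ± 0.08, and MYC by 0.37 ± 0.10, a call that ended without scramble replicate 3. PIK3CB, the beta catalytic subunit of PI3-kinase, had 7.91, 7.80 and 7.80, against 6.86, 6.62 and 6.50, and rose by 1.17 ± 0.09, while AKT1 fell by 0.50 ± 0.10.

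Genes described elsewhere as miR-203 targets fell in a share near that of all tested genes. Of 29 tested, 6 fell (20.7%, against 18.9% of all tested genes), 3 rose and 20 did not pass, with a median of -0.08. Besides LASP1, the members that fell were VEGFA, the endothelial growth factor, by 0.52 ± 0.07, CASK, a scaffold kinase, by 0.48 ± 0.11, and PARK7, an antioxidant protein, by 0.30 ± 0.07. BIRC5, or survivin, and BCL2L2, of the BCL2 family, fell by 0.42 ± 0.15 and 0.27 ± 0.09. SIK1, a salt-inducible kinase, rose by 0.73 ± 0.15, PXN, paxillin, by 0.27 ± 0.09, and RAN, a nuclear transport GTPase, by 0.21 ± 0.06, but with the probe set of largest variance PXN was at -0.016 and RAN at -0.11. These 4 small calls rested on single arrays. Those of BIRC5 and BCL2L2 each ended without miR-203 replicate 1 or 3, and without scramble replicate 1 or 2 for BIRC5 and 1 or 3 for BCL2L2. The BIRC5 call also ended without any 1 of the miR-130a arrays or without miR-205 replicate 3, and the BIRC5 difference was -0.28 without miR-203 replicate 1. The PXN call ended without miR-203 replicate 1 or 2 or scramble replicate 2, and the RAN call without miR-203 replicate 2 or scramble replicate 3. A further 15 named targets were too dim to be tested. The remaining 20 were not called, with ABL1 at -0.08, ATM at 0.10, CREB1 at -0.01, E2F3 at 0.05, SMAD4 at 0.22, SRC at -0.14, JUN at -0.07, AKT2 at -0.02, SKP2 at -0.34 and GATA6 at 0.36. The others were SNAI2 (-0.28, dim with miR-203), SMAD1 (-0.03), CKAP2 (-0.14), ZNF281 (0.04), ROBO1 (-0.25), ASAP1 (0.09), PRKCA (-0.19), PLD2 (-0.17), RAP1A (-0.14) and TBK1 (0.10).

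Of the microRNA machinery 3 of 17 tested genes rose (17.6%) and 5 fell (29.4%), against 17.3% and 18.9% of all tested genes. DICER1, which cuts precursors into mature microRNAs, had 8.57, 8.55 and 8.62 with miR-203, against 8.22, 7.79 and 8.12 with scramble, and rose by 0.54 ± 0.12. The Argonaute AGO3 had 4.97, 4.76 and 4.76, against 4.29, 3.81 and 3.69, and rose by 0.90 ± 0.17. DROSHA, which releases precursors in the nucleus, fell by 0.52 ± 0.11, and the deadenylase subunits CNOT6 and PAN2 by 0.39 ± 0.07 and 0.43 ± 0.10.

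Housekeeping machineries are read against 17.3% higher and 18.9% lower over all tested genes. Of 28 cytosolic ribosomal proteins 3 rose and 0 fell, with a median of 0.09. Of 23 ribosome biogenesis factors 9 rose and 2 fell, with the polymerase subunit POLR1C up by 0.73 ± 0.10, NOC3L by 0.82 ± 0.14 and PES1 down by 0.60 ± 0.09. Of 30 proteasome genes 6 fell and 1 rose, and the largest of these was PSMD10, or gankyrin, an assembly chaperone, with 6.82, 6.99 and 6.90 with miR-203, against 8.10, 8.06 and 8.22 with scramble, a decrease of 1.22 ± 0.07. Of 34 spliceosome genes 3 rose and 5 fell, with SF3B1, of the U2 particle, up by 0.48 ± 0.08 and SF3B2, of the same particle, down by 0.74 ± 0.07. Of 44 autophagy and lysosome genes 7 rose and 9 fell. Among them ATG12, a conjugated autophagy protein, rose by 0.68 ± 0.10, and the cargo receptor SQSTM1, or p62, fell by 0.46 ± 0.09.

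Histone genes, whose mRNAs mostly lack a poly(A) tail, gave 4 higher and 1 lower of 11 tested, where 17.3% of all tested genes rose and 18.9% fell. H2BC21, a histone H2B gene, had 9.45, 9.11 and 9.17 with miR-203, against 7.41, 7.32 and 7.54 with scramble. It rose by 1.82 ± 0.09, was 1.54 above miR-130a and differed by 0.25 from miR-205, where the call ended with the replicate block (adjusted p = 0.065). H2AX, the variant marked at DNA breaks, fell by 0.57 ± 0.11. Histone genes are near-identical copies in part, so a probe set may read more than 1 of them. Ornithine decarboxylase, ODC1, which starts polyamine synthesis, fell by 0.50 ± 0.07. It was among 15 polyamine genes with 2 higher and 3 lower, near the shares over all tested genes.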

How the data were processed

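Per the labels, total RNA of 12 LNCaP cultures in 4 transfection groups was hybridised to human expression arrays, and 6 arrays enter the main comparison. The authors deposited a table of log2 values for 22277 probe sets, and the submitters' processing notes name R 2.9.0, RMA and limma with no role or order. No depth applies to arrays, and their number limits the precision. Genes were named through the platform annotation from the 19070 probe sets with 1 symbol, 1043 had several symbols and 2164 none, and the brightest probe set per gene was used. A gene was tested if it lay above the array median on at least 3 arrays. One limma 3.58.1 fit (R 4.3.3) held the 4 groups over 12 arrays, with empirical Bayes moderation and Benjamini-Hochberg adjustment, and was tested on simulated data. A gene above the median on no array of a group was given a bound. Deviations of same-numbered arrays from the group means correlated at -0.11 to 0.03 between miR-203 and scramble and at 0.047 to 0.097 between miR-203 and miR-130a, so these numbers were not used as pairs. Between miR-203 and miR-205 they correlated at 0.10 to 0.31, all over the cutoff of 0.1. The replicate block was therefore run on that comparison as an alternative. The counts and differences against miR-205, and those against each other group, come from the main fit, which held no block. Arrays of other numbers gave -0.28 to 0.096 with miR-205, -0.11 to 0.039 with miR-130a and -0.09 to 0.16 with scramble. The sample titles state no pairing, so any pairing rests on that cutoff. Named genes included the 15 largest changes in each direction among called genes with no overlap between the miR-203 and scramble arrays. The others were the 10 largest against each other group, up to 6 members per list by adjusted p, members by role, and all tested described targets. The members and lists were chosen with earlier results of these data known, and some members by role were picked after their values were seen. Promoters and microRNAs are from RefSeq (GRCh38.p14), and 5737 of 6821 tested genes had a promoter. The 22 alternatives changed the filter, the probe set per gene, the arrays in the fit, scaling, weights, moderation and single arrays.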

Additional observations from a re-analysis of the deposited data

How the results depend on the processing

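Of 308 counts of genes or list members recomputed under 22 alternatives, 303 stayed within 1.5 times the value reported. The exceptions concern the cell cycle. With no filter on dim probe sets, which tests more genes, 13 genes of G1-S and 14 of G2 and M phase were lower with miR-203, and with array weights 16 of G2 and M phase, where the cause was not tested. Leaving out 1 array at a time gave 957 to 1188 genes higher and 1132 to 1285 lower than scramble, 152 to 196 changed at least 2-fold, 15 to 28 lower in G2 and M phase, 17 to 28 in G1-S, 25 to 26 in the ATF4 list and 23 to 26 higher among the antiviral effectors. With the replicate block, 1189 genes were higher and 1297 lower, and no count moved by over 1.5 times. By the cutoff on correlations, same-numbered miR-203 and scramble arrays were not treated as pairs. Same-numbered miR-203 and miR-205 arrays were over that cutoff. There the block gave 1426 genes higher and 1157 lower over 12 arrays, against 1432 and 1153 without it. On the 6 arrays alone, a setting chosen after seeing the data, it gave 1211 and 1026, and no list count against miR-205 moved by over 1.5 times with the block. With the 6 arrays alone and no block, 18 genes of G2 and M phase were higher than with miR-205. With the probe set of largest variance PXN was at -0.016, RAN at -0.11 and ITGA6 at -0.076, against the direction reported, and MKI67 lost its call. CDKN1A lost its call when only the 6 arrays compared were fitted. The floor of the table limits genes near 2.36, and array signal over background was not given in the sources used here.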
